A study of Mus musculus with 282 samples.

Results

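The haemoglobin genes of the hypothalamus were examined in 282 male mice on a diet high in fat and sugar, with 1 mRNA library per mouse. Hbb-bs, Hbb-bt, Hba-a1, Hba-a2 and Alas2 were chosen by name. All 5 names had a gene row, out of 14079 genes in the expression table, and together they had 9 of its 51024 transcript rows. The mice belong to the HMDP (Hybrid Mouse Diversity Panel), which holds both inbred strains of classical origin and strains made by inbreeding the offspring of a cross (recombinant inbred). For all mice but 1 the labels give 1 strain, which makes 25 inbred strains and 18 AXB/BXA, 43 BXD, 6 BXH and 7 CXB strains. The recombinant inbred sets descend from C57BL/6J crossed with A/J, DBA/2J, C3H/HeJ and BALB/cJ, respectively. All mice received the same diet, so there is no group on another diet, and an age is not given in the labels. The deposited profiles of mice OB-273 and OB-274 of CXB-6/ByJ had the same ratio, 1.0049, for all 13991 genes above 0 in both, within 0.1%. Among the other pairs of mice of a strain, at most 0.93% of genes had the ratio of their pair to this tolerance. The 2 profiles thus differed by less than sampling noise, and their mean was counted as 1 mouse. Values given over all mice count this pair once, so that their n is 1 below the number deposited. There were then 3 mice in 84 strains, 2 in 13 strains and 1 in 2 strains. Levels are FPKM, fragments scaled to the length of the transcript and to the mapped fragments of the library.

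Adult haemoglobin is a tetramer of alpha and beta globin chains, each of which holds a haem group. The alpha chains are made from Hba-a1 and Hba-a2, which lie close together on chromosome 11. The beta chains are made from a pair of adult genes in the Hbb cluster on chromosome 7. Mouse strains carry different haplotypes of this cluster. C57BL/6J, the strain of the reference genome, has the single haplotype, whose copies Hbb-bs and Hbb-bt encode the same protein. A/J, BALB/c, C3H and DBA/2 mice have the diffuse haplotype, whose copies, Hbb-b1 and Hbb-b2, differ in sequence and in output. Alas2 on the X chromosome encodes the erythroid form of the enzyme that starts haem synthesis. Globin mRNA in brain tissue comes largely from red blood cells, above all from reticulocytes, and globin transcripts have also been reported in some neurons and glia. In bulk tissue, fewer red cells and less globin RNA per cell cannot be told apart.

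The sequences show how little separates the copies. The coding sequences of Hbb-bs and Hbb-bt in the GENCODE M21 annotation of GRCm38, which shares its coordinates with mm10, have 444 bases and differ at 1 of them. Those of Hba-a1 and Hba-a2 have 429 bases and also differ at 1. Below are the 60 coding bases that contain the difference, with the differing base in capitals. They lie at chr7:103826692-103826751 and chr7:103812683-103812742, both on the minus strand, and at chr11:32284284-32284343 and chr11:32297101-32297160, both on the plus strand.
Hbb-bs: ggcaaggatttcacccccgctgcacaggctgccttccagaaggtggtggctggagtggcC
Hbb-bt: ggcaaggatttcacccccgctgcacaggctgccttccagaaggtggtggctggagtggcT
Hba-a1: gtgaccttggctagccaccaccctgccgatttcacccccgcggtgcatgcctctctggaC
Hba-a2: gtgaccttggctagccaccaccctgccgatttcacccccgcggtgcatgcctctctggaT
Of all stretches of 50 bases, the length of the reads, 65.8% of the Hbb-bs transcript occur unchanged in Hbb-bt and 58.3% of the Hbb-bt transcript occur unchanged in Hbb-bs. For the alpha genes, 67.5% of Hba-a1 stretches occur in Hba-a2 and 86.9% of Hba-a2 stretches occur in Hba-a1. The division of reads within each pair therefore rests on the remaining stretches and on the weighting of reads with several loci in the authors' quantification, and levels of single copies are uncertain to that extent. The strains of the diffuse haplotype were also aligned to the reference, and Hbb-b1 and Hbb-b2 have no row in the expression table.

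Upstream sequence differed more for the beta pair than for the alpha pair. The 120 bases before the RefSeq transcription start (GRCm38.p6) are printed for the 4 genes. The CACCC box, the CCAAT box and a TATA-like box (ATATAA) are in capitals on either strand. They lie at chr7:103827929-103828048 and chr7:103813924-103814043 on the minus strand, and at chr11:32283552-32283671 and chr11:32296372-32296491 on the plus strand.
Hbb-bs: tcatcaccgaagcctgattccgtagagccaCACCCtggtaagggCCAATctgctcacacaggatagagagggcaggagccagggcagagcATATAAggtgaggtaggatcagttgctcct
Hbb-bt: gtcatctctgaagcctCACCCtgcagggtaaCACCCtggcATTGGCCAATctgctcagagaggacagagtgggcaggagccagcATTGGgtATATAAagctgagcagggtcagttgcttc
Hba-a1: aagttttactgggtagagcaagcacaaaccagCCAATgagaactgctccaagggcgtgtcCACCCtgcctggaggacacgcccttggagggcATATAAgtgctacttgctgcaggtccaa
Hba-a2: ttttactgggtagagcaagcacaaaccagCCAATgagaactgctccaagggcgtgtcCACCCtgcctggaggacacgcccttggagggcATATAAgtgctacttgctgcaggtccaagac
All 4 windows hold each motif, with 2 CACCC and 3 CCAAT in Hbb-bt and 1 of each in the others. Over 32851 promoters of the same table, the window holds CACCC in 31.7%, CCAAT in 21.3% and ATATAA in 4.47%. The motifs are described as letters only. Over the upstream 250 bases, Hba-a1 and Hba-a2 were identical at 247 of 247 aligned bases, after a shift of 3 bases between their annotated starts. Hbb-bs and Hbb-bt were identical at 51.0% of the bases aligned without gaps. This figure covers all 250 bases rather than the 120 printed ones, and a single inserted base misaligns all bases beyond it. All of these are reference sequences, so they say nothing of the other strains.

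Hbb-bs was the most abundant of the 5 genes. Its level was 113 ± 56.6 FPKM (SD over all mice), with a range of 27.0 to 462 and a median of 102, and its mean lay above those of 96.7% of genes. Hba-a1 followed at 25.2 ± 15.998, Hbb-bt at 6.30 ± 4.51, Hba-a2 at 3.06 ± 4.55 and Alas2 at 2.04 ± 0.964 FPKM (SD over all mice). In every mouse Hbb-bs exceeded Hba-a1 and Hba-a1 exceeded Hbb-bt. The order below that was not fixed: Hbb-bt exceeded Hba-a2 in 204 mice and Alas2 in 269, and Hba-a2 exceeded Alas2 in 121. Hba-a2 was listed at 0 in 102 mice, whereas the other 4 genes were above 0 in all mice. Of 12 other globin genes sought, the embryonic ones included, only Ngb (23.5 ± 4.52) and Cygb (39.7 ± 5.80), the neuronal globin and cytoglobin, had a row.

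**Figure D1:**
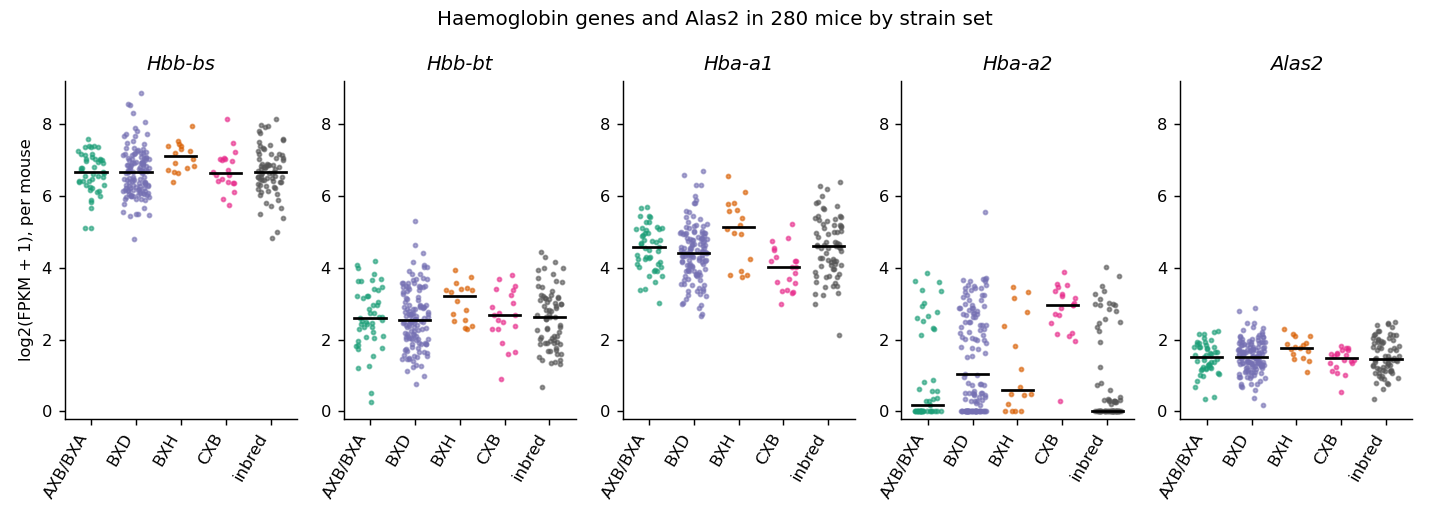
Level of each gene by strain set in all mice with a known strain, as log2(FPKM + 1). Each point is a mouse and each black line the median of the mice of a set. Hba-a2 alone has many mice at or near 0, and Hbb-bs is the highest gene in every set.

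At the level of transcripts, most of the signal was assigned to models that are not the full coding mRNA. Hbb-bs has 3 transcript rows. TCONS_00323593, which matches a retained-intron model of 2 exons and 549 bases, carried 97.0% of the mean level of the gene (110 ± 55.5 FPKM over all mice). TCONS_00323592, the annotated coding mRNA of 3 exons, had 1.43 ± 1.42 FPKM, and TCONS_00323591, an unannotated isoform with 4 exons, had 1.94 ± 1.88. Hba-a1 had the same pattern. Its retained-intron model TCONS_00044047 had 24.2 ± 15.4 FPKM, or 95.9% of the gene, and its coding mRNA TCONS_00044046 had 1.02 ± 0.909. Hbb-bt and Hba-a2 have 1 coding model each. For Alas2, TCONS_00377381 and TCONS_00377382 had 0.733 ± 0.64 and 0.738 ± 0.658 FPKM, and they were listed at 0 in 64 and 48 mice. Because exons shared by the models and the short length of the intron models both enter these estimates, the ratio of models was not read as a ratio of RNA species.

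All 5 genes differed between strains in limma's moderated F test over 99 strains, with Benjamini-Hochberg adjusted p from 1.73e-68 for Hba-a2 to 8.30e-10 for Alas2. This test called 74.9% of all 14079 genes, so the call itself does not set the 5 genes apart. The share of variance between strains (intraclass correlation on the log2 scale) was 0.892 for Hba-a2, above 98.7% of genes. It was 0.652 for Hbb-bt, 0.627 for Hba-a1, 0.55 for Hbb-bs and 0.40 for Alas2, above 94.4%, 93.6%, 90.8% and 79.2% of genes, respectively. All 9 transcripts also passed, where 45.9% of transcripts did, with shares between 0.166 for TCONS_00377382 and 0.881 for the Hba-a2 transcript TCONS_00044053. The calls of TCONS_00377381, TCONS_00377382, TCONS_00044046, TCONS_00323591 and TCONS_00323592 were each lost when the mice of some replicate number were left out of all strains. That of TCONS_00377381, for example, was kept without replicate 1 and lost without replicate 2 and without replicate 3. The calls of the 5 genes were kept whichever replicate number was left out.

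The summed level of the 4 globin genes varied 8.23-fold between strains. BXD-20/TyJ had the highest mean, 345 ± 168 FPKM (SD, n = 3), with mice at 368, 500 and 167. C3H/HeJ followed at 331 ± 31.6 (n = 3), with mice at 311.3, 367.3 and 314, and its spread lay inside the range of BXD-20/TyJ. BXD-12/TyJ, the next strain, had 207, 577 and 113 FPKM. The lowest strains were AXB-6/PgnJ at 41.9 ± 1.71 (n = 2), RIIIS/J at 51.6 ± 11.4 and AKR/J at 55.0 ± 20.8 (n = 3 each). The mice of these low strains overlapped, and none of them reached the level of the lowest C3H/HeJ mouse. The median of the strain means was 137 FPKM. Neighbouring strains in this order were not separated, because the highest and the lowest mouse of the same strain differed by a median of 1.57-fold over 97 strains, and by more than 2-fold in 18. The widest spread was 5.10-fold in BXD-12/TyJ. Its mouse OB-547 stands apart from all others by the sum of FPKM over all genes, 792801 against a median of 337533 and a next highest of 463433. It is the mouse at 577 FPKM of summed globins, and its strain mates had 207 and 113. The place of BXD-12/TyJ after C3H/HeJ therefore rests on this mouse. Without this mouse the mean of summed globins over all mice moved from 148 to 147 FPKM.

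**Figure D2:**
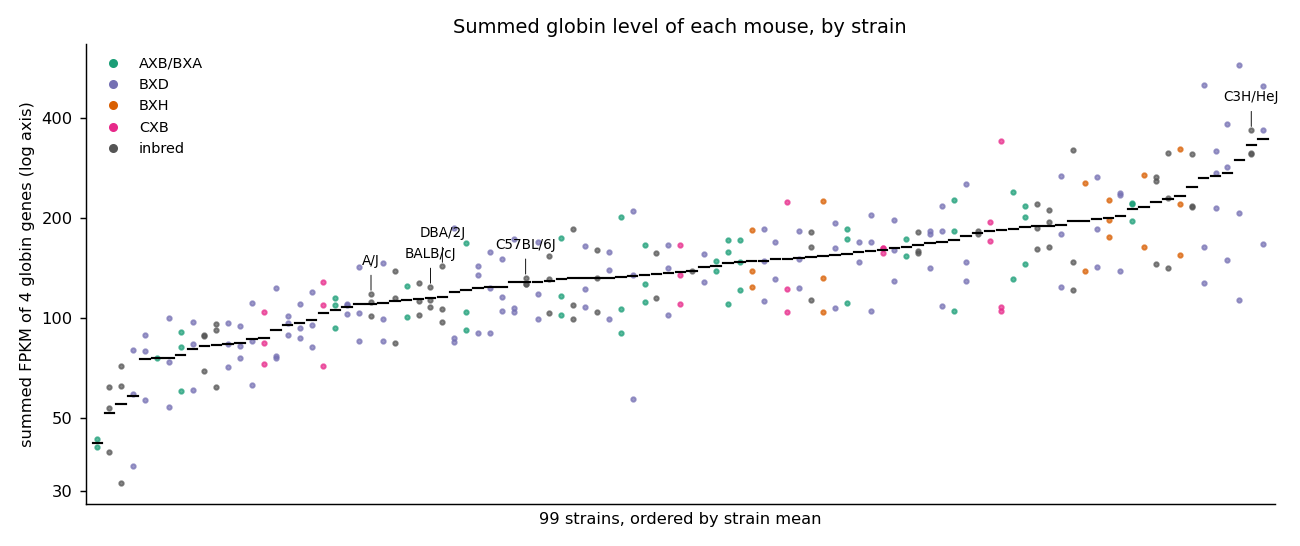
Summed FPKM of Hbb-bs, Hbb-bt, Hba-a1 and Hba-a2 in each mouse (points, log axis) of 99 strains in the order of their means (black lines). C3H/HeJ lies near the top of the order at a mean of 331, while the other 4 founder strains have means between 110 and 128.

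Alas2 followed the summed globin level across strains. It was highest in BXD-20/TyJ, with mice at 4.03, 6.31 and 3.79 FPKM, and next highest in C3H/HeJ, with 4.54, 3.76 and 3.47. It was lowest in RIIIS/J, at 0.644 ± 0.34 (SD, n = 3). Over 99 strain means, on the log2 scale, Alas2 had r = 0.847 with the summed globins, which made it the gene most like them after Hbb-bs (r = 0.989), a part of the sum. Hba-a1 (r = 0.812) and Hbb-bt (r = 0.669) came next, and Hba-a2 had r = 0.12. The members were followed by Rpl35 (r = 0.447), which encodes a ribosomal protein, and the locus of Efnb3 and Wrap53 at chr11:69554086-69579324 (r = 0.446). The points share libraries and normalization, and this list was ordered by r, so no test was made.

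Between founder strains, Hba-a2 showed the largest contrast. Its level was 6.27, 4.94 and 4.53 FPKM in the 3 C57BL/6J mice and 6.73, 6.87 and 3.72 in the 3 BALB/cJ mice. In A/J it was 0, 0.271 and 0, in C3H/HeJ 0.501, 0 and 0.652, and in DBA/2J 0.249, 0.233 and 0. The 6 mice of C57BL/6J and BALB/cJ thus lay above all 9 mice of the other founders. On the log2(FPKM + 1) scale, which understates changes from low levels, the difference of Hba-a2 from C57BL/6J was -2.52 ± 0.373 (SE) in A/J, -2.196 ± 0.373 in C3H/HeJ and -2.42 ± 0.373 in DBA/2J (limma contrasts, adjusted p = 1.70e-08, 1.20e-06 and 5.21e-08). In BALB/cJ the difference was 0.09 ± 0.373 (adjusted p = 0.946). It was the only one of the 5 genes called in A/J, where 7.98% of genes were called, and in DBA/2J, where 6.85% were. In BALB/cJ none of the 5 was called, against 6.75% of genes.

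C3H/HeJ differed from C57BL/6J in 3 of the 5 genes, where 7.56% of all genes were called. Hbb-bs was 248.6, 280 and 242 FPKM in the C3H/HeJ mice and 99.4, 98.7 and 97.7 in the C57BL/6J mice, with no overlap. The difference was 1.37 ± 0.347 on the log2 scale (limma, adjusted p = 0.00324), and it no longer passed without the mice numbered replicate 1 (adjusted p = 0.0569) or replicate 2 (adjusted p = 0.0735) of each strain. Hba-a1 was 52.0, 72.1 and 63.3 against 20.1, 14.6 and 17.3 FPKM, a difference of 1.79 ± 0.393 (limma, adjusted p = 0.000384), which did not pass without the mice of replicate 2 (adjusted p = 0.0509). Hbb-bt was 10.2, 14.8 and 8.24 against 6.12, 7.93 and 7.09 FPKM and did not pass (log2 difference 0.56 ± 0.394, limma adjusted p = 0.475). The values of Alas2 were 4.54, 3.76 and 3.47 in C3H/HeJ and 1.82, 3.42 and 1.41 FPKM in C57BL/6J (limma adjusted p = 0.162). C3H/HeJ also differed in the Hbb-bs models. TCONS_00323591 was close to 0 and TCONS_00323592 was at 4.37 FPKM, against 5.57 and close to 0 in C57BL/6J (limma adjusted p = 0.0078 and 0.00944). The other founders differed from C57BL/6J in the same direction and did not pass (limma adjusted p from 0.106 to 0.643). TCONS_00323591 was at 0.833 FPKM in A/J, 0.941 in BALB/cJ and 0.776 in DBA/2J, and TCONS_00323592 at 1.45, 1.11 and 0.986.

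Hba-a2 divided the strains. Its share of the summed Hba-a1 and Hba-a2 FPKM was at most 5.87% in 57 strains and at least 15.7% in 42, with no strain between. The share was highest in BALB/cJ, at 38.1% ± 6.79 (SD, n = 3), and was 23.2% ± 2.29 in C57BL/6J (n = 3). It was 0.398% ± 0.689 in A/J, 0.659% ± 0.571 in C3H/HeJ and 0.832% ± 0.779 in DBA/2J (n = 3 each). In 23 strains every mouse was listed at 0 FPKM of Hba-a2. Of the Hba-a2 stretches of 50 bases, 96.8% occur in Hba-a1 with up to 3 mismatches. Whether a level of 0 reflects the RNA or the division of reads was not tested. Among inbred strains, the share was also high in 129X1/SvJ (34.7%), C57BLKS/J (32.4%), LG/J (28.4%) and C57L/J (24.5%).

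The recombinant inbred strains repeated the levels of their parents. In the BXD set, 21 strains had a share of at most 1.64% and 22 a share of at least 15.7%. In the AXB/BXA set 13 strains had at most 1.58% and 5 at least 20.3%, and in the BXH set 4 had at most 1.62% and 2 at least 20.8%. In the CXB set, both of whose parents had a high share of Hba-a2, all 7 strains lay between 22.3% and 35.8%. On the log2 ratio of Hba-a2 to Hba-a1, 22 of 43 BXD, 5 of 18 AXB/BXA and 2 of 6 BXH strains were nearer to C57BL/6J than to the other parent. The gap between the nearest strains of either kind was 1.54, 1.44 and 2.94 log2 units, against a within-strain SD of 0.52 over all strains. Strain sets also differed in the level of Hba-a2 (limma F test on strain means, adjusted p = 0.0269), with a mean of 6.84 ± 1.64 FPKM over 7 CXB strains and 1.91 ± 3.30 over 25 inbred strains (SD). Of the 5 genes it was the only one to pass, where 26.9% of all genes did. This call was lost without the mice of replicate 2 (adjusted p = 0.0602). Hba-a1 (adjusted p = 0.125), Alas2 (0.487), Hbb-bs (0.51) and Hbb-bt (0.662) did not pass the limma test between sets.

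Some strains held mice with very unlike shares of Hba-a2. In CXB-7/ByJ the share was 29.0%, 36.9% and 0.933%, with Hba-a2 at 7.05, 9.98 and 0.211 FPKM. Every other CXB mouse had a share of at least 20.9%. The mouse with little Hba-a2 did not stand apart in the beta pair, since its Hbb-bt share of 6.49% lay between those of the other mice of its strain, 5.91% and 6.88%. In PL/J the share was 11.7% and 0% in its 2 mice. BXD-21/TyJ had 32.6%, 6.63% and 28.1%, and BXD-9/TyJ had 16.8%, 25.5% and 4.88%. Whether labels, genotype, coverage or the division of shared reads had a part in these differences was not tested.

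**Figure D3:**
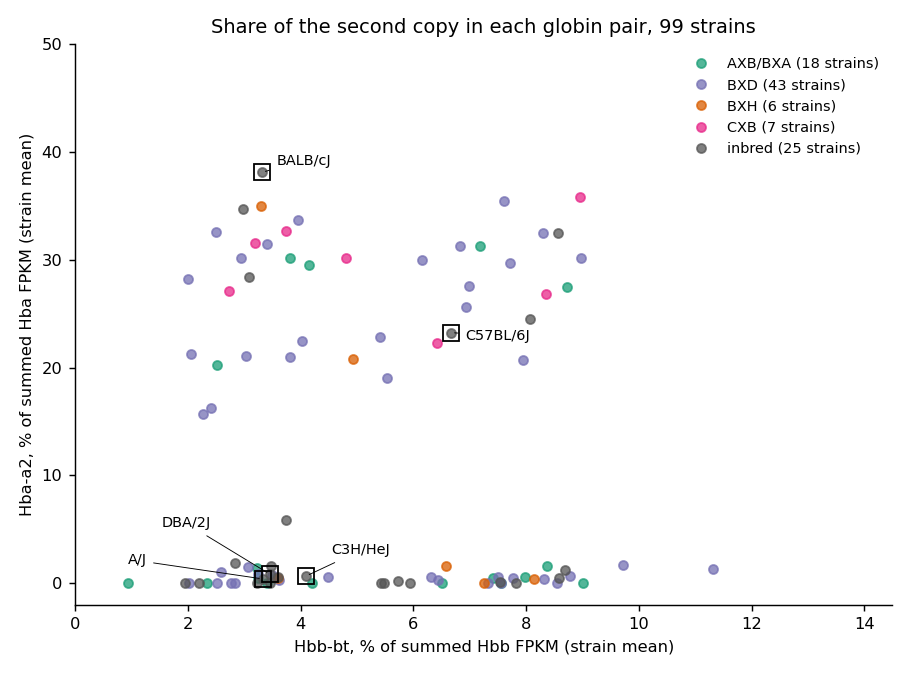
Strain means of the Hba-a2 share of Hba FPKM (vertical axis, %) against the Hbb-bt share of Hbb FPKM (horizontal axis, %) for 99 strains, coloured by set, with the 5 founder strains boxed. The vertical axis is empty between 5.87% and 15.7%, and strains with high and with low Hba-a2 occur at both low and high Hbb-bt.

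Of the FPKM assigned to the beta pair, Hbb-bt had a larger share in C57BL/6J than in the other founders. The other founders carry Hbb-b1 and Hbb-b2, whose reads were aligned to the reference copies. Whether the output of a copy or the assignment of reads differed was not tested. The share of Hbb-bt in the summed Hbb FPKM was 5.80%, 7.44% and 6.77% in C57BL/6J. It was 2.61% to 4.36% in A/J, 2.96% to 3.57% in BALB/cJ, 3.30% to 5.03% in C3H/HeJ and 3.27% to 3.81% in DBA/2J. As the log2 ratio of Hbb-bt to Hbb-bs, each with 1 FPKM added, C57BL/6J had -3.64 ± 0.17 (SD, n = 3 mice). The 12 mice of the other founders had -4.46 ± 0.183 (SD), with strain means between -4.50 in BALB/cJ and -4.44 in DBA/2J. All 12 lay below the lowest C57BL/6J mouse (-4.15 against -3.82 for the nearest mice). The difference was -0.82 (exact 2-sided permutation test, p = 0.0044, the smallest this design allows). The mice are not independent draws of a haplotype, since they come from 5 strains. The level of Hbb-bt itself, which mixes this ratio with the amount of globin RNA, differed from C57BL/6J by -1.06 ± 0.394 (SE, log2 scale) in A/J, -0.90 ± 0.394 in BALB/cJ and -0.91 ± 0.394 in DBA/2J, none of which passed (limma, adjusted p = 0.0809, 0.183 and 0.168).

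The same test did not separate the alpha ratio. The log2 ratio of Hba-a2 to Hba-a1 was -1.55 ± 0.166 in C57BL/6J (SD, n = 3) and -3.69 ± 1.96 in the 12 mice of the other founders, a difference of -2.13 (exact 2-sided permutation test, p = 0.0923). The other founders were themselves divided, with BALB/cJ at -0.61 ± 0.349 and A/J, C3H/HeJ and DBA/2J between -5.54 and -4.11. The strain share of variance was 0.916 for the alpha ratio and 0.76 for the beta ratio, beside 0.55 for summed globins. Where Hba-a2 was at 0, the alpha ratio with 1 FPKM added is the negative log2 of Hba-a1 + 1, so among strains with little Hba-a2 it followed the level of Hba-a1. AXB-6/PgnJ, with a mean of 8.35 FPKM of Hba-a1, had a ratio of -3.21, and BXHA1, with 70.5 FPKM, had -6.09.

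The 1 FPKM added to each gene raises the beta ratio where Hbb-bt is low, so its order mixes the share of Hbb-bt with its level. AXB-6/PgnJ had the lowest Hbb-bt share, 0.938%, but a ratio of -4.71. The beta ratio ran from -5.15 in BXD-32/TyJ, whose Hbb-bt share was 2.02%, to -2.85 in BXD45. It had no wide gap over all 99 strains, but in the BXD, AXB/BXA and CXB sets the widest gap lay between the parental values, and in the BXH set the next widest. In the BXD set 22 strains were nearer to C57BL/6J (-3.85 to -2.85) and 21 nearer to DBA/2J (-5.15 to -4.15). In the AXB/BXA set 8 of 18 were nearer to C57BL/6J, in the BXH set 3 of 6 and in the CXB set 4 of 7. The gap between the nearest strains of either kind was 0.302 (BXD), 0.372 (AXB/BXA), 0.361 (BXH) and 0.472 log2 units (CXB), against a within-strain SD of 0.325, so that single mice near the middle cannot be placed. In the BXD set 11 strains were nearer to C57BL/6J in both ratios, 11 in the beta ratio alone, 11 in the alpha ratio alone and 10 in neither. In the same order, the counts were 2, 6, 3 and 7 in the AXB/BXA set and 0, 3, 2 and 1 in the BXH set.

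Genes near the Hbb cluster had the patterns most like the beta ratio. Over 99 strain means on the log2 scale, 7 of the 10 genes with the largest absolute r lay on chromosome 7, with Hbb-bt itself among them. The first was Trim12a (r = 0.849), a TRIM family gene at chr7:104299897-104315456 in mm10, 0.473 Mb from Hbb-bs. The second was XLOC_025637 (r = -0.835), a locus without a name at chr4:88598971-88599892, where GENCODE M21 places the processed pseudogene Mrpl48-ps. The third was Mrpl48 (r = 0.789), which encodes a protein of the mitochondrial ribosome and lies 3.28 Mb from Hbb-bs. Myo7a (0.769), Rnf169 (0.719), Dgat2 (0.693) and Neu3 (-0.623) lie 3.91 to 5.78 Mb away. XLOC_033400 (-0.743), for which no deposited transcript gives a position, and XLOC_026608 on chromosome 4 (-0.627) completed the list.

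In the recombinant inbred sets, the order of the beta ratio separated the strains by Trim12a without exception. In the BXD set the 20 strains with the lowest ratios had at most 0.697 FPKM of Trim12a, and the 23 others had 1.71 to 4.39. The same 20 strains had 7.78 to 21.8 FPKM of XLOC_025637, and the others 0.23 to 0.683. Their Mrpl48 was 13.0 to 29.0 FPKM, against 41.6 to 59.9. XLOC_025637, at the place of the Mrpl48 pseudogene, was thus high where Mrpl48 was low. These loci may not be independent, and whether reads of Mrpl48 were placed at XLOC_025637 was not tested. The highest value of XLOC_025637 belonged to BXD-12/TyJ, the strain of mouse OB-547. The cut fell between BXD55 (-4.20) and BXD-21/TyJ (-4.15), which was nearer to DBA/2J in its ratio but on the side of C57BL/6J in the other loci. In the AXB/BXA set the 9 lowest ratios went with at most 0.114 FPKM of Trim12a and the 9 others with at least 1.78. One of the latter, BXA-8/PgnJ, had a ratio of -4.06, nearer to A/J, but 2.02 FPKM of Trim12a, 49.9 of Mrpl48 and 0.378 of XLOC_025637. In the BXH set the division was 3 to 3 and in the CXB set 3 to 4, again without an exception. These counts were made after the values had been seen and are a description.

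**Figure D4:**
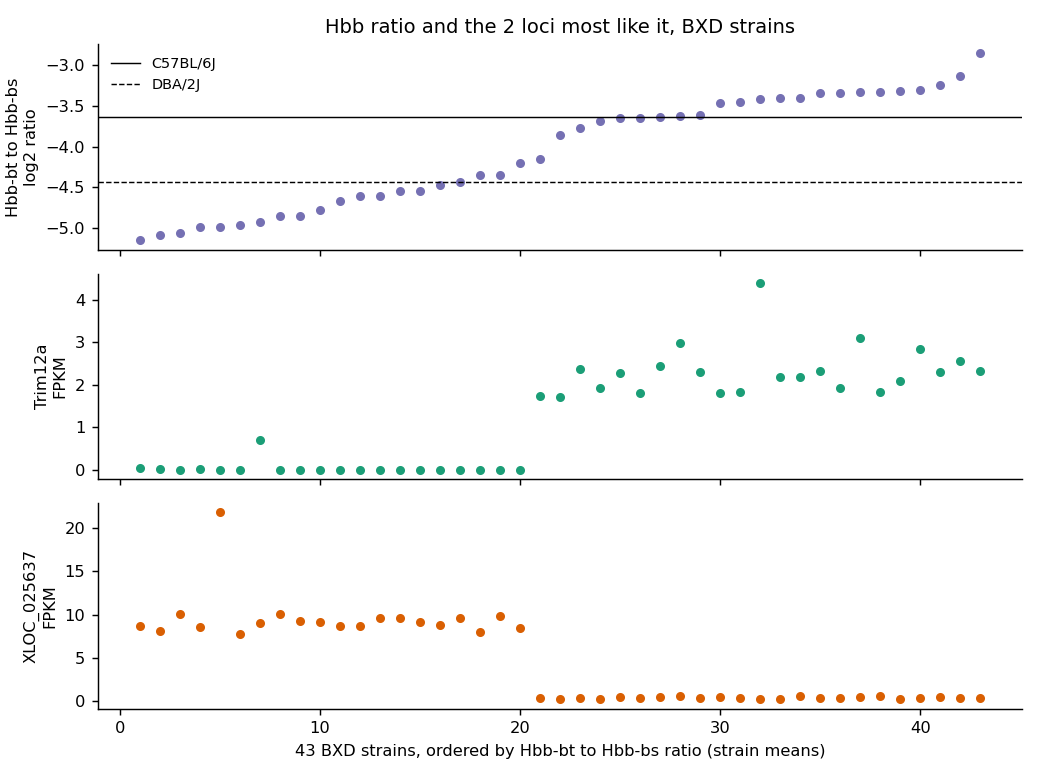
Strain means of 43 BXD strains in the order of their Hbb-bt to Hbb-bs log2 ratio (top, with C57BL/6J and DBA/2J as lines), with Trim12a (middle) and XLOC_025637 (bottom) in FPKM. Both lower panels change level between the strains in positions 20 and 21, where the ratio passes from -4.20 to -4.15.

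Inbred strains did not keep these patterns together. The 14 strains with a beta ratio of at most -4.27 all had Trim12a at or below 0.0332 FPKM. Of the 11 strains with a ratio of at least -3.93, 8 had Trim12a of at least 1 FPKM. The other 3 were CE/J (0.192), SJL/J and SWR/J (both 0), with ratios of -3.81, -3.42 and -3.32. XLOC_025637 was low only in C57BL/6J, C57L/J, C57BLKS/J and CE/J among the inbred strains, at 0.316 to 0.562 FPKM, and was at least 3.76 in the other 7 of the 11.

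Genes near the Hba pair were also among those most like the alpha ratio. After Hba-a2 (r = 0.932) and Hba-a1 (r = -0.705), which form the ratio, came XLOC_004397 (-0.659), for which no deposited transcript gives a position. Of the 10 genes, 7 lay on chromosome 11, with Hba-a2 and Hba-a1 among them. XLOC_002960 (0.524) lay on chromosome 10, and XLOC_005846 (-0.508) had no position either. Asb3 (0.651) lies 1.34 Mb from Hba-a2, Mtif2 (0.527) 2.77 Mb and Ccdc104 (-0.583) 3.08 Mb. Mpg (-0.558), a DNA repair enzyme, lies 0.07 Mb away and Snrnp25 (-0.46), a part of the minor spliceosome, 0.0911 Mb. This list was added after the values had been seen.

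The ratio of summed Hbb to summed Hba FPKM had a median of 4.40 over strain means, with a range from 2.14 in BXHA1 to 6.97 in BXD86. Among the founders it was 4.75 ± 0.726 in C57BL/6J, 3.74 ± 0.469 in A/J, 6.91 ± 1.95 in BALB/cJ, 4.31 ± 0.547 in C3H/HeJ and 4.94 ± 0.0922 in DBA/2J (SD, n = 3 each). The 3 BALB/cJ mice, at 5.71, 5.85 and 9.16, lay above all other founder mice, whose highest value was 5.45.

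The globin genes and Alas2 rose and fell together among mice of the same strain. For each mouse of the 97 strains with more than 1 mouse, the deviation from its strain mean was taken on the log2 scale, and the 10 pairs of genes were tested by permuting mice within strains. Hbb-bs and Hba-a1, which lie on different chromosomes, had r = 0.858 and rho = 0.846 (permutation test, adjusted p = 1.11e-05, the smallest that 100000 resamples can give after adjustment). Hbb-bs had r = 0.755 (rho = 0.717) with Hbb-bt and r = 0.537 (rho = 0.538) with Alas2, both at the same adjusted permutation p. Hbb-bt and Hba-a1 had r = 0.701. The weakest pair was Hba-a2 and Alas2, with r = 0.253 and rho = 0.235 (permutation test, adjusted p = 0.00017 and 0.00074). Hba-a2 had r = 0.475 with Hbb-bs and 0.39 with Hba-a1, over strains of which many have Hba-a2 near 0. When the 2 mice most distant from the median of a pair's first gene were left out, r lay between 0.238 and 0.848 for the 10 pairs, and without mouse OB-547 between 0.247 and 0.852.

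**Figure D5:**
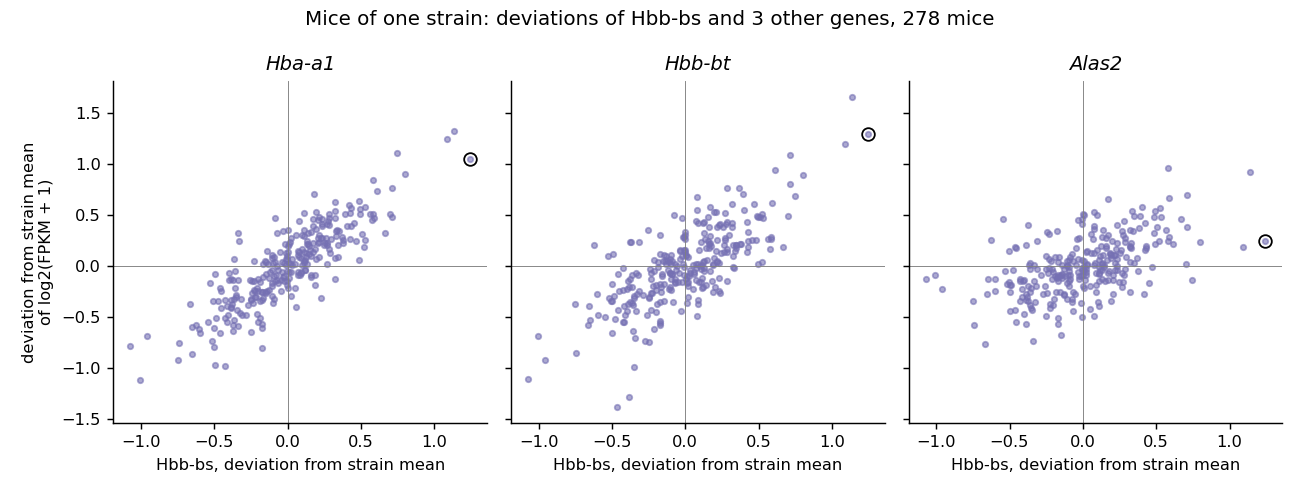
Deviations from the strain mean of log2(FPKM + 1) for Hbb-bs (horizontal axes) and for Hba-a1, Hbb-bt and Alas2 (vertical axes) in the mice of 97 strains, with mouse OB-547 circled. Points run along the diagonal for Hba-a1 (r = 0.858) and Hbb-bt (r = 0.755) and scatter more for Alas2 (r = 0.537).

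Library measures moved with the same deviations. The summed globins had r = 0.403 with the sum of FPKM over all genes, 0.176 with the mapped reads on the log2 scale and -0.231 with the percentage of uniquely mapped reads (deviations from strain means in the same mice). Without mouse OB-547 these were 0.363, 0.203 and -0.166. Among 14074 other genes, 4.05% had an absolute r of at least 0.4 with the summed globins within strains. Among those with the largest were Eif3k (0.506), the Efnb3 and Wrap53 locus (0.501), Mt1 (0.50), Nedd8 (0.492), Gstp1 (0.492), Fth1 (0.489), Cyld (-0.487), Ndufa7 (0.487) and Ndufs6 (0.487). Fth1 encodes the heavy chain of ferritin, the iron store, and Mt1 a metallothionein, while Eif3k encodes a subunit of a translation initiation factor. None of the genes named here reached the r of Alas2 (0.535). The part of library composition in these relations was not tested.

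Few other genes of blood were in the table. None of 15 erythroid genes, such as Slc4a1 and Klf1, had a row, and none of 11 white blood cell genes had a row. Of 5 platelet genes Itga2b alone was present (3.65 ± 1.31 FPKM, SD over all mice), with r = 0.234. The table leaves low genes out, since a feature had to be detected by 100 mice or more and to exceed 1 FPKM for 50 or more, and the levels of these genes are not known here.

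Other genes of haem synthesis had weaker relations with the globins than Alas2. All 8 other genes of haem synthesis had a row, and 6 of them differed between strains, against 74.9% of all genes. Their within-strain r with the summed globins ran from -0.154 for Cpox to 0.308 for Alad, with a median of 0.158 beside 0.0275 over all genes. Alad, the enzyme of the second step, had a strain share of 0.90, and its r with the summed globins over strain means was -0.0476. Alas1, the form of the first enzyme found in all tissues, had 22.6 ± 2.49 FPKM and did not differ between strains (limma F test, adjusted p = 0.491). Of 8 genes of haem and haemoglobin clearance, 5 had a row and all 5 differed between strains. Among them Hmox1, which is induced by haem, had 2.55 ± 0.552 FPKM and r = 0.172 within strains, and Blvrb had r = 0.31. Of 10 genes that red cells share with brain, Bpgm, which makes the regulator of oxygen release in red cells, had r = 0.317, and Slc25a37, the mitochondrial iron importer of red cells, had r = -0.124. Cygb had r = 0.447 and Ngb 0.153.

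Genes of brain endothelium, choroid plexus and anterior pituitary had weaker relations with the summed globins than Alas2. For 8 of 9 genes of brain endothelium, the within-strain r ran from -0.293 for Flt1 to 0.324 for Ly6c1, and their summed level from 79.4 to 152 FPKM over mice. For 5 of 6 genes of the choroid plexus r lay between 0.0189 and 0.087, with a summed level of 7.25 to 2101. For 6 of 7 genes of the anterior pituitary it lay between 0.0531 and 0.118, with a summed level of 0.589 to 16462. Agrp, Avp, Oxt, Hcrt and Pmch, markers of the hypothalamus itself, were above 0 in all mice. Pomc was also above 0 in all mice, but it ran from 1.45 to 6850.9 FPKM with a median of 24.2. Agrp ran from 101.7 to 310.4 FPKM and Avp from 69.7 to 2493.4. Whether Pomc followed the anterior pituitary genes was not tested.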

How the data were processed

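The authors sequenced unstranded TruSeq mRNA libraries of the hypothalamus as paired reads, used STAR 2.3.1 for alignment (mm10), Cufflinks 2.2.0 for an assembly of each strain that was joined to GENCODE M2, and Cuffnorm 2.2.1 for the level of each mouse. The deposited values are FPKM, normalised between libraries by the authors, for features detected by 100 mice or more and above 1 FPKM for 50 or more. The deposited assembly gave names and exons. Whether animals were perfused is not given in the sources used here. FPKM hold no counts, so no counting interval was computed.

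Here log2(FPKM + 1) was fitted by strain with limma 3.58.1 (R 4.3.3) over all 14079 genes, and separately over all 51024 transcripts, with every mouse of known strain, Benjamini-Hochberg adjustment and a threshold of 0.05. Replicate numbers follow the order of accession. P-values of the fit by strain rest on the spread between mice of a strain. Strain sets were compared on strain means, so those p-values rest on the spread between strains. The tests of founder ratios exchange mice between strains. Founder ratios were compared with exact permutation tests, and correlations within strains with 100000 permutations, in Python 3.11.15 with scipy 1.17.1. The fits were tested on simulated data. Mouse OB-627, whose labels name different strains, entered only values over all mice. The 2 profiles of CXB-6/ByJ that differed by a constant factor were averaged and counted as 1 mouse. The members, gene lists and tests were chosen with earlier results of these data known. Genes were named as members, as examples of a list, or as the 10 genes with the largest absolute r with a ratio or the summed globins, of which some are not reported here. Sequences came from RefSeq promoters (GRCm38.p6) and GENCODE M21, where all 4 globin genes and Alas2 matched by symbol. Alternatives were pseudocounts of 0.1 and 0.01, quantile normalization, a minimum mean FPKM of 1, covariates for mapped reads and for the percentage of unique reads, each replicate left out, mouse OB-627 in either strain, mouse OB-547 left out, both CXB-6/ByJ profiles kept and ratios from summed transcripts.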

Additional observations from a re-analysis of the deposited data

How the results depend on the processing

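The strain calls of the 5 genes, the 3 Hba-a2 contrasts, the beta ratio and all 10 within-strain correlations kept their direction and their side of the threshold under every alternative run. Fewer features were called when the mice of 1 replicate number were left out, as these samples have fewer mice per strain by construction: 45.6% to 61.4% of genes and 24.2% to 33.0% of transcripts between strains, and 15.8% to 22.3% of genes between strain sets, where all mice gave 74.9%, 45.9% and 26.9%. Against C57BL/6J they were 4.07% to 4.96% of genes (A/J), 3.52% to 4.99% (BALB/cJ), 3.99% to 4.93% (C3H/HeJ) and 4.06% to 4.49% (DBA/2J), where all mice gave 7.98%, 6.75%, 7.56% and 6.85%. The beta ratio then differed by -0.91 to -0.77 (exact permutation test, p = 0.0444, the smallest that is possible with 2 against 8 mice). The alpha ratio differed by -2.21 to -2.01. The contrasts of Hbb-bs and Hba-a1 in C3H/HeJ and the set test of Hba-a2 lost their calls in such samples, as given with the results. A pseudocount of 0.01 also ended the strain calls of both Alas2 transcripts (limma, adjusted p = 0.0639 and 0.144), and the cause was not tested. Correlations with Hba-a2 were lowest at a pseudocount of 0.01, at 0.172 with Hba-a1 and 0.26 with Hbb-bs. With both profiles of CXB-6/ByJ kept as 2 mice, an alternative chosen after seeing the data, 75.4% of genes differed between strains and 26.2% between strain sets, and no call on the 5 genes or 9 transcripts changed. No paired analysis was possible because replicate numbers follow accession order and the labels pair no mice across strains.

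Depth behind each value is not in the FPKM. The annotated coding transcripts of near-identical copies share most stretches of read length. How many reads the copies share was not measured. With 3 mice per strain, differences between neighbouring strains were not resolved.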

Other observations

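Mouse OB-627, which the labels place in AXB-8 by its title and in AXB-6 by its strain field, had 99.4 FPKM of Hbb-bs, 4.99 of Hbb-bt, 32.3 of Hba-a1, 0 of Hba-a2 and 1.39 of Alas2. Its log2 ratio of Hbb-bt to Hbb-bs was -4.07. The 2 mice of AXB-6/PgnJ had -4.85 and -4.57, with 33.4 and 33.2 FPKM of Hbb-bs, and the 2 mice of AXB-8/PgnJ had -3.56 and -3.31, with 77.9 and 90.9 FPKM of Hbb-bs.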
